A study of Rattus norvegicus with 6 samples.

Results

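The S100 and annexin genes described here are 10 calcium-binding protein genes, S100a4, S100a6, S100a8, S100a9, S100a10, S100a11, Anxa1, Anxa2, Anxa3 and Anxa5. They were chosen by symbol, and all 10 were found among the 25399 genes of the count tables. Their raw counts of unique molecular identifiers (UMIs, which count captured mRNA molecules) were read in cell classes defined by other genes. The data are 6 droplet libraries of single-cell mRNA 3′ ends, made from brain tissue of Sprague Dawley rats whose age label reads postnatal day 21. The title of the series names the pons, the part of the brainstem between midbrain and medulla, after stroke. Of these, 3 are labelled sham and 3 pontine infarction, with no other difference of strain, tissue or age and no time after the operation. Libraries are called sham 1 to 3 and infarction 1 to 3. Nothing in the labels says how many animals went into a library, so p-values measure only how these samples vary, and that variation may be technical.

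S100 proteins are small calcium sensors that work mostly as dimers. S100a8 and S100a9 pair to form calprotectin, which fills the cytosol of neutrophils, binds zinc and manganese and, once released, acts on Toll-like receptor 4 and the receptor encoded by Ager. S100a4 binds non-muscle myosin and is known from migrating fibroblasts, tumour cells and macrophages, S100a6 is known from growing and mesenchymal cells, and S100a11 pairs with annexin A1. S100a10 differs from the others in holding its active shape without calcium: it joins annexin A2 in a tetramer that carries plasminogen and its activator to the cell surface and brings channels to the membrane. Annexins bind acidic phospholipids when calcium rises. Annexin A1 dampens leukocyte recruitment through formyl peptide receptors, annexin A2 links membranes to actin and helps to repair them, annexin A5 binds exposed phosphatidylserine, and Anxa3 is a known transcript of ramified microglia and of neutrophil granules.

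Most S100 genes lie side by side on rat chromosome 2. In the RefSeq order of assembly GRCr8, S100a4, S100a5, S100a6, S100a7a, S100a8 and S100a9 follow each other there, and S100a11 and S100a10 stand apart from them with 1 pseudogene, Cks1l-ps1, between the pair. Of the annexin genes, Anxa5 is also on chromosome 2, far from the S100 genes in that order, Anxa1 is on chromosome 1, Anxa2 on chromosome 8 and Anxa3 on chromosome 14. A RefSeq start region was found for 8 of the 10 genes, all but S100a8 and S100a10. The 250 bases before the start are shown for 4 genes with the most different patterns below: one nearly restricted to neutrophils, one that marks macrophages and smooth muscle, the gene with the smallest adjusted p in microglia-like cells and the gene highest in them. The promoter of S100a9 is chr2:178490623-178490872 on the minus strand, that of S100a4 chr2:178388279-178388528 on the plus strand, that of Anxa2 chr8:78986002-78986251 on the plus strand and that of Anxa3 chr14:13085598-13085847 on the minus strand. Capitals mark a TATA box (TATAAA), an AP-1 site (TGANTCA, bound by Fos and Jun proteins) or a GC box (GGGCGG, bound by Sp1), each searched on both strands.
S100a9: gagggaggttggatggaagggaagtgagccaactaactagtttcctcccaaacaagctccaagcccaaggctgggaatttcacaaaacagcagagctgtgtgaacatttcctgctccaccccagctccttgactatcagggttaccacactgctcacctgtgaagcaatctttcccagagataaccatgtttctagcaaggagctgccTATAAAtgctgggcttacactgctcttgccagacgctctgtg
S100a4: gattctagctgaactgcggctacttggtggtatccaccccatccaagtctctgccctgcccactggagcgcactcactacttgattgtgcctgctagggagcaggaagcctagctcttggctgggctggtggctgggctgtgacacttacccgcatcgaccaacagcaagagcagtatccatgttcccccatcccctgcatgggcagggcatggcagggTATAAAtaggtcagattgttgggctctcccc
Anxa2: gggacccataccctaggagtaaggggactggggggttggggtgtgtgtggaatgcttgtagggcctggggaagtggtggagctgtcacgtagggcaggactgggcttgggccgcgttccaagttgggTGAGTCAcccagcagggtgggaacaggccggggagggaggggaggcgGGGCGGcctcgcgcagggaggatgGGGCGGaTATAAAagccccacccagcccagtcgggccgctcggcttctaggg
Anxa3: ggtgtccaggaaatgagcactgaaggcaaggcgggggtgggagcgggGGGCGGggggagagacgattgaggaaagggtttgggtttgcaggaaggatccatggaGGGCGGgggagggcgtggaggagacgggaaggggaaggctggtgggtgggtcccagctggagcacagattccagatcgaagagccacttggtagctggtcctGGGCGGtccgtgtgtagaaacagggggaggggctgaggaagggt

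TATAAA stood 42 bases before the start of S100a9, 31 before that of S100a4, 45 before that of Anxa2 and 46 before that of Anxa1, whose sequence is not shown. Anxa3 held no TATAAA and 3 GC boxes, at 203, 146 and 44 bases. Anxa2 held the AP-1 match at 123 bases and GC boxes at 76 and 52 bases. Of 33469 RefSeq start regions of the same length, 12.9% held TATAAA, 6.34% held TGANTCA and 30.5% held GGGCGG. These are matches of letters, and no binding was measured.

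The tables held 44011 cell barcodes, of which 37853 were kept, between 5873 and 7255 per library, with 50976410 to 62875211 UMIs. Clustering ignored all 30 S100 and annexin genes in the tables and gave 28 clusters, of which 27 were named by markers, as X-like. The remaining cluster, led by Fcnb, Vcan, Ccl24, Arg1 and Fn1, stayed unnamed and is called the Fcnb/Vcan cluster (28 sham and 3579 infarction cells). The libraries of the groups held different cells. Smooth muscle-like cells numbered 8658 in sham and 1 in infarction, and pericyte-like cells 2777 and 11. Gpnmb-high macrophage-like cells numbered 0 and 3445, and neutrophil-like cells 69 and 4430. Labelled as brain, the libraries held few neurons: 224 neuron-like cells in sham and 3 in infarction. Of 43785 barcode sequences, 226 occurred in several libraries. Smooth muscle genes, read in the other classes as a reference for RNA carried over from other cells, fell in each of the 9 classes tested, from 2 of 8 genes in endothelial-like to 9 of 9 in microglia-like cells. Levels below are CPM, the usual depth-scaled counts, here the UMIs of a gene relative to all UMIs of the class in a library.

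The classes that held most of a gene differed across the family, as the plot of levels by class shows. S100a8 and S100a9 were transcripts of 1 class: neutrophil-like cells held 98.8% to 99.4% of all S100a8 UMIs in the sham libraries and 85.1% to 92.6% in the infarction libraries. For S100a9 the shares were 98.7% to 99.4% and 93.1% to 97.1%. S100a4 was highest in the macrophage classes that were all but absent from sham, at 4630, 5195 and 5243 CPM in the Fcnb/Vcan cluster, 3879, 4483 and 3903 CPM in interferon-responding macrophage-like cells and 3565, 4064 and 3970 CPM in Gpnmb-high macrophage-like cells of infarction 1, 2 and 3. The latter 2 classes overlapped, and the Fcnb/Vcan cluster stood above both. Anxa2 was highest in the same cluster in infarction, at 1633, 1587 and 1528 CPM.

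**Figure D1:**
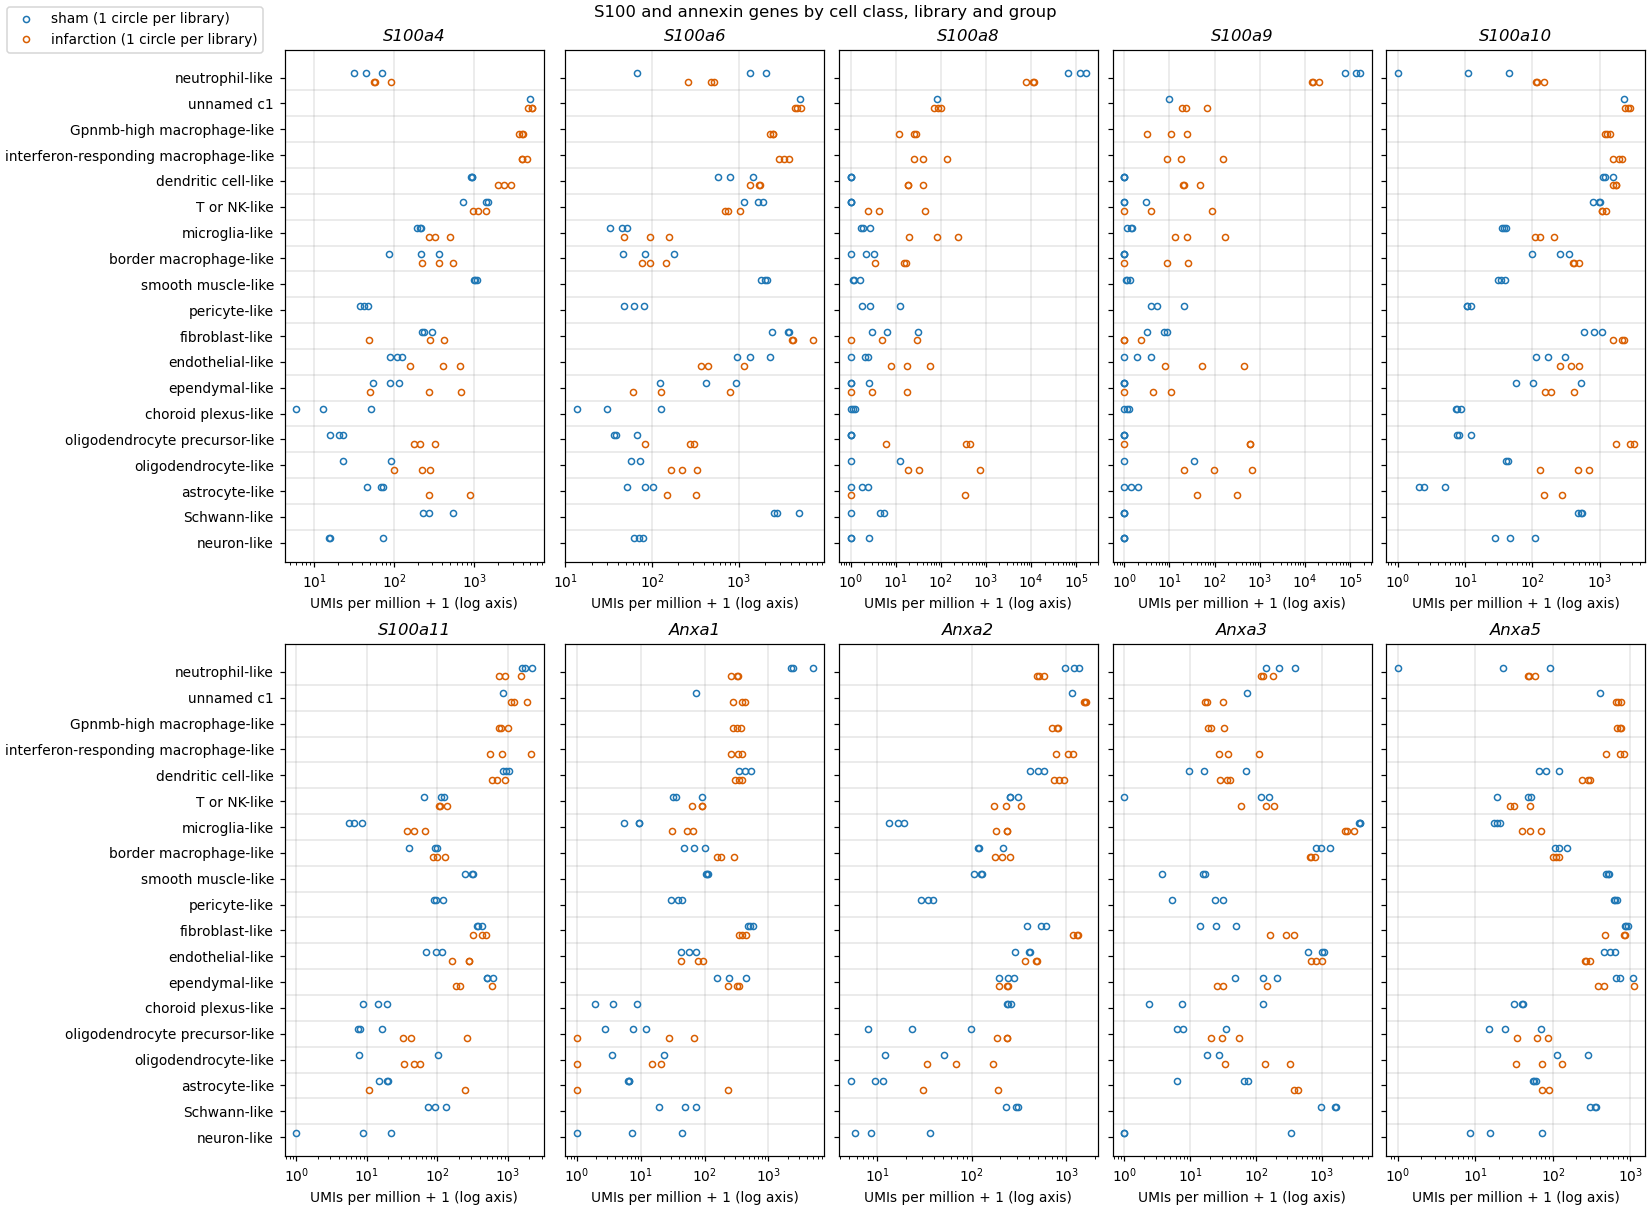
Level of each of the 10 genes in each cell class (CPM + 1, log axis), 1 circle per library, for classes with enough cells in a library; colours separate sham from infarction, and unnamed c1 is the Fcnb/Vcan cluster. In every library S100a8 and S100a9 are highest in neutrophil-like cells, and Anxa3 is highest in microglia-like cells, at 2263 to 3776 CPM.

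Among vessel cells, S100a4 and S100a6 separated smooth muscle from pericytes. In sham 1, 2 and 3, S100a4 stood at 1000, 1009 and 1075 CPM in smooth muscle-like cells and at 36.5, 41.3 and 46.9 CPM in pericyte-like cells. S100a6 stood at 1815, 2136 and 1995 CPM against 45.9, 60.3 and 80.1 CPM. Anxa5 did not follow them: it was at 526, 488 and 511 CPM in smooth muscle-like cells and a little higher, 638, 613 and 676 CPM, in pericyte-like cells. The highest S100a6 levels were in Schwann-like cells (5006, 2742 and 2526 CPM in sham), the Fcnb/Vcan cluster (4484, 4710 and 5257 CPM in infarction) and fibroblast-like cells, and their ranges overlapped.

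Fibroblast-like cells carried most of the family at once, including Anxa5 (944, 870 and 842 CPM in sham), Anxa1 (582, 519 and 479 CPM) and Anxa2 (545, 388 and 608 CPM). Anxa5 was as high in ependymal-like cells of sham, at 656, 1094 and 739 CPM, so the order of these 2 classes is within their spread. Schwann-like cells were the second place of Anxa3, at 962, 1598 and 1614 CPM, with border macrophage-like cells at 810, 965 and 1334 CPM and endothelial-like cells at 614, 1001 and 1074 CPM overlapping them. Microglia markers, summed, stood at 7410 to 8629 CPM in Schwann-like and 13153 to 14938 CPM in border macrophage-like cells of sham. In microglia-like cells of sham they stood at 23190 to 26187 CPM. The part of microglia transcripts in these Anxa3 values was not tested. Smooth muscle-like cells held 2.71 to 15.9 CPM of Anxa3. S100a10 was at 1028, 806 and 989 CPM in T or NK-like cells of sham and at 1122, 1195 and 1567 CPM in dendritic-like cells, but at 29.8 to 37.6 CPM in smooth muscle-like and at 9.74 to 11.3 CPM in pericyte-like cells.

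Neutrophil-like cells of the infarction libraries carried far less calprotectin message than those of sham. S100a8 was at 123869, 65968 and 167716 CPM in sham 1, 2 and 3 and at 7798, 11299 and 11752 CPM in infarction 1, 2 and 3. S100a9 was at 132880, 75729 and 166351 CPM and at 14457, 15429 and 20490 CPM. Together they made up 25.7%, 14.2% and 33.4% of all UMIs of the sham cells and 2.23%, 2.67% and 3.22% of those of the infarction cells, with no overlap. In CPM, the groups did not overlap for 39.3% of all genes tested in the class. By edgeR's quasi-likelihood test with Benjamini-Hochberg adjustment over all genes tested in the class, S100a8 fell by 3.32 on the log2 scale (SE 0.40, adjusted p = 6.3e-10) and S100a9 fell by 2.67 (SE 0.39, edgeR adjusted p = 1.14e-07). The sham side rests on 13, 44 and 12 cells, against 2051, 1404 and 975. In all, 1 of the 10 genes was called higher and 4 lower, where 14% of all genes tested were called higher and 6.96% lower.

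**Figure D2:**
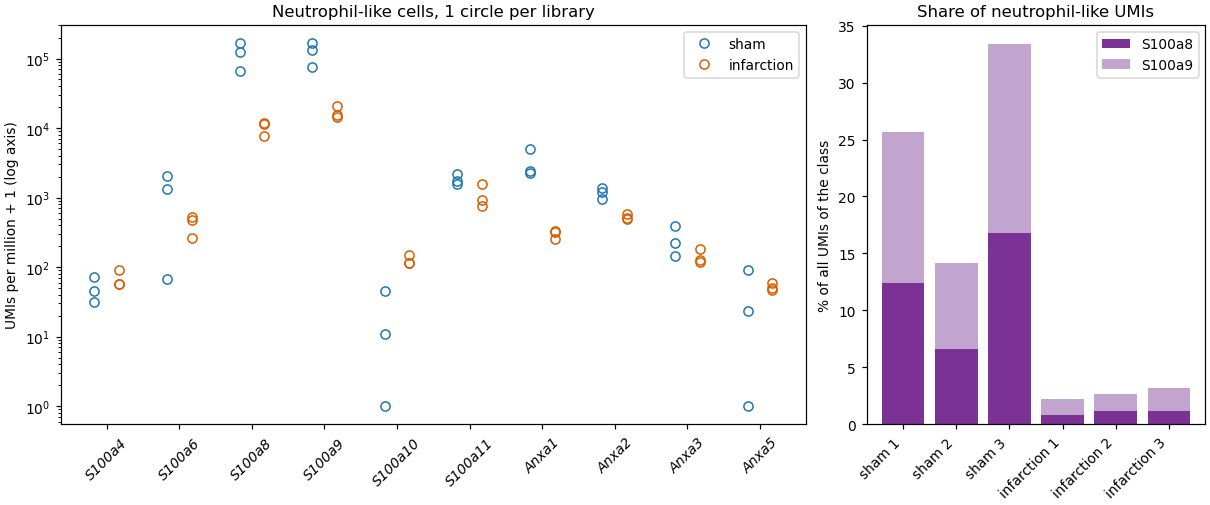
Neutrophil-like cells. Left, level of each gene (CPM + 1, log axis), 1 circle per library and colours for sham and infarction; right, share of the class's UMIs taken by S100a8 and S100a9 in each library (stacked bars from 0). Both shares are lower in all 3 infarction libraries, where the pair takes 2.23% to 3.22%.

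Calprotectin message was also found in fewer infarction cells. When each cell was thinned to 1000 UMIs, S100a8 was detected in 98.5% of sham and 50.3% ± 10.2 (SD, n = 3) of infarction neutrophil-like cells (99.2% and 54.7% without thinning; median depths 2143 and 1927 UMIs). Thinning left out 4 of 69 and 260 of 4430 cells. In microglia-like cells of the infarction libraries the same share was 3.46% (16.2% without thinning, at a median depth of 6902 UMIs). Sham 1, 2 and 3 gave ratios of S100a8 to S100a9 UMIs of 0.932, 0.871 and 1.01, against 0.539, 0.732 and 0.574 for infarction 1, 2 and 3. The log2 ratio was lower by 0.618 in infarction, with an exact two-sided permutation p = 0.1, the smallest that 3 against 3 libraries allow.

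Of the annexins, Anxa1, which encodes the protein that restrains neutrophil recruitment, fell most in neutrophil-like cells. It was at 2253, 2430 and 4930 CPM in sham and at 323, 332 and 255 CPM in infarction, a fall by 3.19 on the log2 scale (SE 0.35, edgeR adjusted p = 9.69e-11). Fpr2, which encodes a formyl peptide receptor that annexin A1 binds, fell too, from a mean of 136 to 6.18 CPM (SE 0.54 on the log2 scale, edgeR adjusted p = 2.25e-08). Anxa2 was at 1197, 968 and 1364 CPM in sham and at 588, 511 and 496 CPM in infarction. Its fall by 0.89 (SE 0.30) passed the edgeR test with adjusted p = 0.0275, but not without sham 1, sham 2 or sham 3 (adjusted p = 0.0864, 0.0551 and 0.285).

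S100a10 went the other way, from 0, 10.1 and 44.0 CPM in sham to 115, 113 and 146 CPM in infarction, a rise by 3.06 on the log2 scale (SE 0.62, edgeR adjusted p = 0.00012). Markers of Gpnmb-high macrophages moved with it: the 11 summed stood at 352 to 797 CPM in neutrophil-like cells of sham (2 to 5 of them with a UMI) and at 4089 to 5002 CPM in infarction (all 11), against 40411 to 54164 CPM in Gpnmb-high macrophage-like cells, where S100a10 was at 1217 to 1435 CPM. Their part in the S100a10 value was not tested. S100a6 was uneven in sham, at 2042, 1331 and 66.0 CPM against 261, 475 and 519 CPM, and was not called (edgeR adjusted p = 0.479); without sham 3 it was lower by 1.52 (adjusted p = 2.89e-05; log2 -1.52). S100a11 was at 1725, 1583 and 2201 CPM in sham and 1544, 753 and 920 CPM in infarction, and passed the test without infarction 1 alone (edgeR adjusted p = 0.275 with all libraries and 0.0166 without it). S100a4, Anxa3 and Anxa5 were low in both groups and not called. When the UMIs of S100a8 and S100a9 were left out of the class totals, an alternative added after seeing the data, the values were -3.14 for Anxa1, -0.84 for Anxa2 and 3.12 for S100a10, all still called (21.1% of all genes were).

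Other neutrophil genes moved in both directions. Of 11 tested, 2 rose and 4 fell, where 14% of all genes tested in the class were called higher and 6.96% lower. The 2 that rose were the decoy receptor gene Il1r2 (773 to 2950 CPM) and the growth factor receptor gene Csf3r (326 to 581 CPM). Those that fell included the collagenase gene Mmp8 (3420 to 226 CPM), Padi4, whose enzyme citrullinates histones (274 to 9.96 CPM), and the surface protein gene Cd177 (217 to 1.66 CPM).

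Outside neutrophils, S100a8 and S100a9 were low in sham and, in several classes, uneven in infarction. S100a8 was steadier in the Fcnb/Vcan cluster of infarction 1, 2 and 3, at 98.3, 85.0 and 68.0 CPM. S100a9 there was at 68.1, 22.5 and 18.3 CPM. The highest sham values in a class with at least 10 cells were 80.2 CPM of S100a8 in the Fcnb/Vcan cluster of sham 2 (22 cells) and 33.4 CPM of S100a9 in oligodendrocyte-like cells of sham 2 (18 cells), and fibroblast-like cells of sham 3 held S100a8 at 30.6 CPM. In microglia-like cells S100a8 was at 0.928, 1.68 and 0.706 CPM in sham and at 240, 80.6 and 19.2 CPM in infarction. S100a9 was at 0.464, 0.168 and 0.404 CPM and at 169, 23.9 and 12.6 CPM. Both were called higher, by 6.71 (SE 1.67, edgeR adjusted p = 0.0245) and 7.63 (SE 2.3, edgeR adjusted p = 0.0432). Neither call held without sham 1, sham 2, sham 3 or infarction 2: the adjusted p for S100a8 was then 0.0698, 0.0869, 0.0998 and 0.0518, and for S100a9 0.103, 0.139, 0.152 and 0.0548.

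The 17 neutrophil markers, summed, stood at 51.2 to 66.4 CPM in microglia-like cells of sham and at 114 to 275 CPM in infarction. In infarction, microglia-like cells held 0.163% to 3.07% of the S100a8 level of neutrophil-like cells of the same library and 0.0615% to 1.17% of the S100a9 level. The 12 neutrophil reference genes summed stood at 0.807% to 2.09% of their neutrophil level. Microglia-like cells of infarction 1, 2 and 3 held 3475, 1058 and 192 UMIs of S100a8 against 2450, 314 and 126 of S100a9. Neutrophil-like cells held fewer S100a8 than S100a9 UMIs, at ratios of 0.539, 0.732 and 0.574. Camp, a granule gene, stood at 0, 0.17 and 0.10 CPM in microglia-like cells of sham and at 49.2, 1.30 and 1.70 CPM in infarction 1, 2 and 3. It was highest in the library with the highest S100a8 but, unlike S100a8, lower in infarction 2 than in infarction 3. The part of neutrophil transcripts in the S100a8 and S100a9 values was not tested.

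Precursor-like cells of oligodendrocytes held no S100a8 or S100a9 UMI in any sham library. In infarction 1, 2 and 3 they held S100a8 at 451, 4.95 and 362 CPM and S100a9 at 620, 0 and 622 CPM. Against a floor of 3 UMIs over the sham group, S100a8 was at least 156-fold and S100a9 at least 236-fold higher. Infarction 2 stood apart, and the neutrophil gene Il1r2 followed the same order in these cells, at 165, 3.30 and 91.9 CPM. Neither gene passed the filter on low counts there, so neither was tested. In dendritic-like cells both were also at 0 in sham, and S100a8 stood at 40.3, 17.8 and 17.5 CPM in infarction, at least 6.78-fold higher against the same kind of floor; it was not called (edgeR adjusted p = 0.237).

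Microglia-like cells carried more of most of the family in infarction. Of the 10 genes, 8 were called higher and 1 lower, where 32.4% of all genes tested were called higher and 31.9% lower. The median change of the 10 was 2.39 on the log2 scale, against -0.02 for all genes tested. Anxa2 had the smallest adjusted p: it was at 18.1, 15.5 and 12.1 CPM in sham and at 235, 181 and 234 CPM in infarction, a rise by 3.88 (SE 0.16, edgeR adjusted p = 2.95e-07). S100a10, whose protein binds annexin A2, rose with it, from 33.9, 39.5 and 36.6 CPM to 107, 130 and 212 CPM, by 1.99 (SE 0.28, edgeR adjusted p = 0.00128).

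Anxa1 and S100a11, whose proteins form the other known annexin and S100 pair, also rose in microglia-like cells. Anxa1 was at 8.35, 4.54 and 8.48 CPM in sham and at 53.1, 29.9 and 65.6 CPM in infarction, a rise by 2.78 (SE 0.40, edgeR adjusted p = 0.00152). S100a11 was at 4.64, 5.54 and 7.47 CPM and at 46.2, 35.9 and 66.0 CPM, a rise by 2.94 (SE 0.28, edgeR adjusted p = 7.39e-05). Anxa5 went from 18.1, 16.3 and 19.6 CPM to 38.7, 49.1 and 69.6 CPM, a rise by 1.51 (SE 0.22, edgeR adjusted p = 0.000585). In none of these 5 genes did the groups overlap, as was so for 70% of all genes tested.

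S100a4 and S100a6 moved least among the S100 genes of microglia-like cells. S100a4 was at 216, 194 and 209 CPM in sham and at 271, 326 and 494 CPM in infarction, higher by 0.79 (SE 0.22, edgeR adjusted p = 0.0209); without sham 2 or sham 3 it missed the threshold (adjusted p = 0.0663 and 0.0527). S100a6 was at 31.6, 44.5 and 50.8 CPM and at 46.5, 93.7 and 156 CPM, and was not called (1.15, SE 0.51, edgeR adjusted p = 0.114). Without infarction 1 it was (1.496, adjusted p = 0.0125). In infarction, S100a4 in microglia-like cells was 5.84% to 9.41% of its level in the Fcnb/Vcan cluster and S100a6 1.04% to 2.97%, while Anxa2 was 11.4% to 15.3% and Anxa1 10.6% to 17.1%. Fcnb and Vcan themselves were at 0.66% to 1.72% and 0.73% to 1.56% of that level. The 11 Gpnmb-high macrophage markers, summed, stood at 1771 to 1936 CPM in microglia-like cells of sham and at 10094 to 15475 CPM in infarction, and their part in these changes was not tested.

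**Figure D3:**
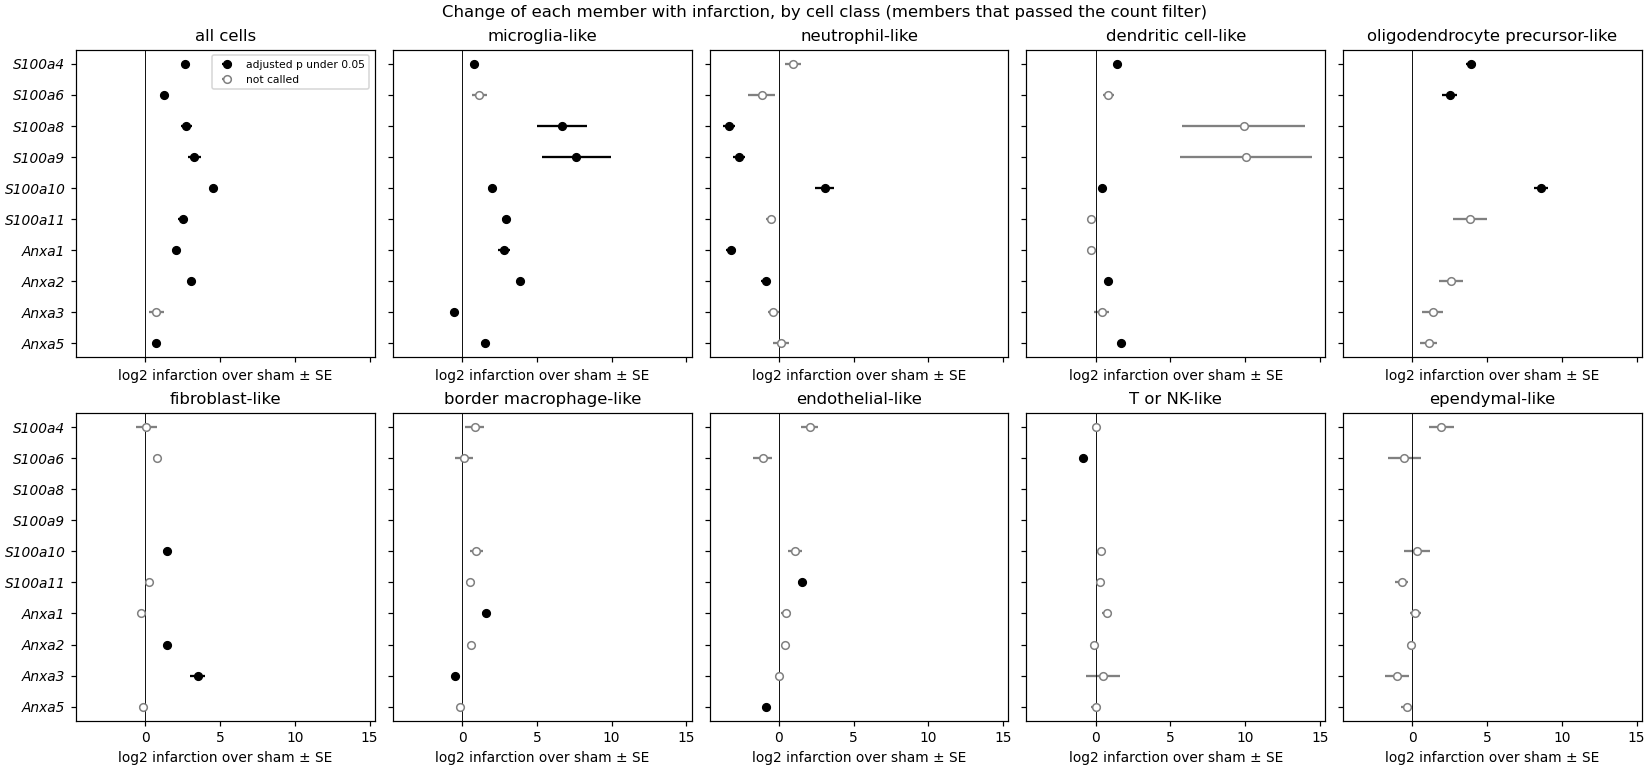
Change of each gene (log2 of infarction over sham, with its SE) in all cells and in each class tested, from edgeR's quasi-likelihood fit; black points have an adjusted p under 0.05. Anxa2 stands at 3.88 in microglia-like and S100a10 at 8.58 in precursor-like cells, and S100a8, S100a9 and Anxa1 stand below 0 in neutrophil-like cells.

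The microglia-like class was made of 4 clusters, and the groups filled different ones. The cluster led by Tmem119 and P2ry12, genes of resting microglia, held 2357 of the sham and 143 of the infarction cells. A cluster of shallow cells (median 1276 UMIs) held 778 and 1140, a cluster led by Ccl4 and Gpr84 held 149 and 1553, and a cluster of dividing cells led by Top2a and Mki67 held 22 and 773. The changes of the class were therefore read within clusters too, as alternatives added after seeing the data.

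Anxa2 rose inside both clusters that could be fitted alone. In the Ccl4 and Gpr84 cluster it was at 20.5, 21.9 and 10.4 CPM in sham and at 223, 154 and 155 CPM in infarction, a rise by 3.41 (SE 0.32, edgeR adjusted p = 2e-06). In the shallow cluster it was at 29.1, 45.6 and 29.9 CPM and at 225, 167 and 152 CPM, a rise by 2.05 (SE 0.25, edgeR adjusted p = 1.7e-06). The few cells of the Tmem119 and P2ry12 cluster in infarction 2 and 3 did not share it, with 11.3 and 20.7 CPM against 10.5 to 13.2 CPM in sham. That cluster was not tested, since infarction 1 held 9 cells of it.

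The other members differed in how they moved inside the clusters. Anxa3 was called lower in both, as in the class, and S100a8 was higher in both (3.08 in the shallow cluster, edgeR adjusted p = 0.000661; 5.86 in the other, edgeR adjusted p = 0.14). S100a6 (1.16), S100a11 (1.59), Anxa5 (1.10) and S100a4 (0.04) had the direction of the class in the Ccl4 and Gpr84 cluster and the opposite one in the shallow cluster, while S100a10 and Anxa1 were below 0 in both and called in neither. In the Ccl4 and Gpr84 cluster 4 of the 10 genes were called higher and 1 lower (27.8% of all genes tested there were called), and S100a10 (-0.16, edgeR adjusted p = 0.676), Anxa1 (-0.17, edgeR adjusted p = 0.806) and S100a11 were not among them. In the shallow cluster 2 were higher and 5 lower, where 42.9% of all genes were called. There S100a6 was at 126, 147 and 187 CPM in sham and at 25.3, 31.0 and 29.3 CPM in infarction (log2 -2.71), and S100a11 was at 48.6, 30.4 and 29.9 CPM and at 16.8, 8.84 and 7.99 CPM (log2 -1.93). Anxa5 (-1.43) and S100a4 (-0.53) were also lower there. The dividing cluster held the highest levels in infarction, with S100a4 at 322, 540 and 810 CPM, S100a10 at 173, 286 and 434 CPM and Anxa1 at 89.3, 65.5 and 125 CPM. Leading genes of the Fcnb/Vcan cluster, summed, stood at 167 to 254 CPM in the dividing cluster, at 33 to 68 CPM in the Ccl4 and Gpr84 cluster and at 31 to 41 CPM in the shallow one; their part in these values was not tested. Without the dividing cluster 8 genes were still called higher and 1 lower, where 61.8% of all genes tested were called, with Anxa2 at 3.70 and S100a10 at 0.74.

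**Figure D4:**
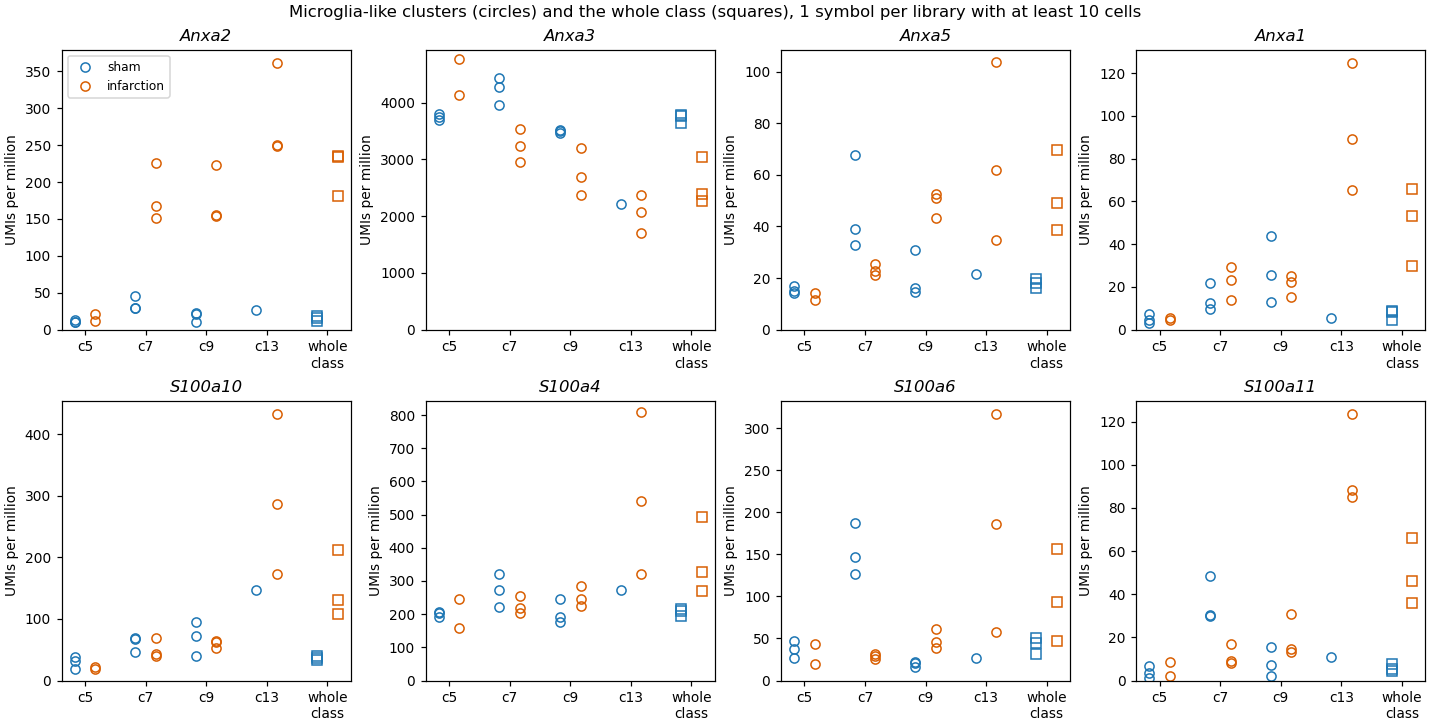
Level of 8 members in the microglia-like clusters (CPM), 1 circle per library with at least 10 cells of a cluster and 1 square per library for the whole class, colours for sham and infarction; c5 is the Tmem119 and P2ry12 cluster, c7 the shallow one, c9 the Ccl4 and Gpr84 cluster and c13 the dividing one. Anxa2 separates the groups in c7 and c9, with 10.4 to 45.6 CPM in sham and 152 to 225 CPM in infarction.

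Anxa3 behaved unlike the rest. It was the annexin of microglia-like cells, which held 86.3% of its UMIs in sham and 92.8% in infarction on average, and it was the member that fell there. It was at 3641, 3765 and 3776 CPM in sham and at 2263, 3039 and 2381 CPM in infarction, a fall by 0.56 on the log2 scale (SE 0.11, edgeR adjusted p = 0.00153). The groups did not overlap, as for 70% of all genes tested. It was also lower within the shallow cluster (-0.62) and the Ccl4 and Gpr84 cluster (-0.59), whereas the few cells of the Tmem119 and P2ry12 cluster in infarction 2 and 3 stood at 4774 and 4125 CPM, above the 3691 to 3798 CPM of sham. The dividing cluster was lower in both groups, at 1697 to 2376 CPM in infarction.

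In border macrophage-like cells Anxa3 was at 810, 965 and 1334 CPM in sham and at 665, 670 and 785 CPM in infarction. It fell by 0.50 (SE 0.16, edgeR adjusted p = 0.0328), a call that was lost without sham 2, sham 3, infarction 1 or infarction 2 (adjusted p = 0.0608, 0.302, 0.152 and 0.102). In fibroblast-like cells it went the other way, from 12.9, 23.8 and 47.9 CPM to 162, 289 and 372 CPM, a rise by 3.49 (SE 0.53, edgeR adjusted p = 0.00443). The infarction side of that class had 15, 27 and 10 cells. The markers of the class shifted too: the 13 fibroblast markers summed stood at 19401 to 23442 CPM in sham and at 3799 to 12865 CPM in infarction, the 11 Gpnmb-high macrophage markers at 1161 to 1379 CPM and 3035 to 9040 CPM, and the 14 astrocyte markers at 337 to 454 CPM and 869 to 1538 CPM. Anxa3 was at 17.5 to 32.2 CPM in Gpnmb-high macrophage-like cells. The part of these shifts in the fibroblast-like values was not tested. In endothelial-like cells it was at 614, 1001 and 1074 CPM and at 823, 993 and 682 CPM, and the groups overlapped (0.03, SE 0.23, edgeR adjusted p = 0.961).

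S100a10 had its largest change in precursor-like cells of the oligodendrocyte line, which in the healthy brain divide and form myelinating cells. It was at 7.03, 11.1 and 6.55 CPM in sham and at 2831, 3210 and 1775 CPM in infarction, a rise by 8.58 on the log2 scale (SE 0.47, edgeR adjusted p = 4.98e-05). That is 13 UMIs in 233 sham cells and 5251 UMIs in 180 infarction cells. The infarction level was 63.4% to 121% of that in the Fcnb/Vcan cluster of the same library, whereas S100a4 and S100a6 there were at 3.43% to 6.99% and 1.75% to 6.80%. Of the 7 members tested in this class, 3 were called higher and 0 lower, where 14.3% of all genes were called higher and 13.8% lower.

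The cells of this class differed in more than S100a10. Of 11 precursor markers, 10 were detected in every library, but their summed level was 7617 to 10966 CPM in sham and 1541 to 2284 CPM in infarction. The 12 oligodendrocyte markers, summed, stood at 3025 to 35916 CPM and at 1471 to 21256 CPM. Their mean, 15053 CPM in sham and 8193 CPM in infarction, was above that of the precursor markers, 9529 and 1851 CPM. Neuron markers stood at 388 to 677 CPM and at 1153 to 2039 CPM. The class name rests on the number of enriched precursor markers (7 of 11), not on their summed level. Olig1, a transcription factor gene of the lineage, was at 3449, 3129 and 2516 CPM in sham and at 463, 397 and 836 CPM in infarction. Gal, the galanin gene and the leading gene of the cluster, had no UMI in sham and stood at 2516, 3348 and 1733 CPM in infarction. The part of these shifts in the S100a10 value was not tested.

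S100a10 was found both in cells with a UMI of a lineage gene and in cells without one. In infarction 1, 2 and 3, 54 of 56, 40 of 47 and 65 of 77 cells of the class held a UMI of Olig1, Olig2 or Sox10. In those cells S100a10 stood at 2817, 3236 and 1794 CPM, and 38, 32 and 26 of them held a UMI of it. The 2, 7 and 12 cells without a lineage UMI held S100a10 at 4691, 2538 and 1135 CPM. Cells with a Gal UMI were the deeper ones (median 21740, 18592 and 24131 UMIs against 4048.5, 2462 and 2054 in the others). S100a10 was at 3305, 3521 and 3067 CPM in them and at 549, 1066 and 505 CPM in the others, all far above the sham cells. Over all cells of infarction 1, 2 and 3 it stood at 1284, 1401 and 1359 CPM, above the cells without a Gal UMI. The part of RNA carried over from other cells in these values was not tested. The split by Gal was chosen after its values were seen.

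**Figure D5:**
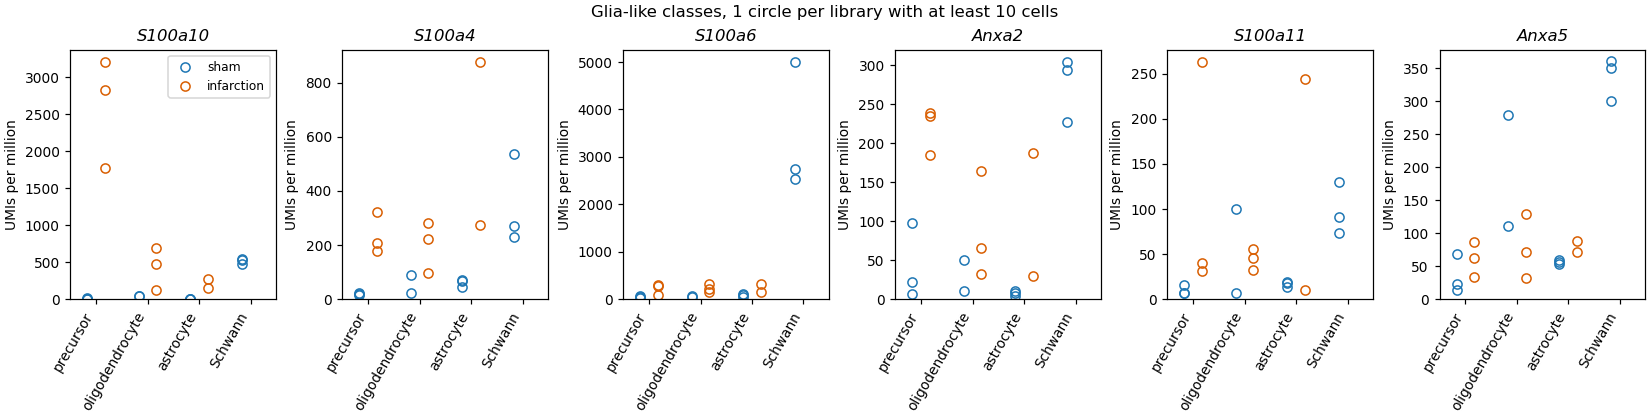
Level of 6 members in the glia-like classes (CPM), 1 circle per library with at least 10 cells, colours for sham and infarction. In precursor-like cells S100a10 stands at 6.55 to 11.1 CPM in sham and at 1775 to 3210 CPM in infarction.

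S100a4 and S100a6 were also called higher in precursor-like cells. S100a4 went from 19.3, 22.2 and 14.7 CPM to 324, 178 and 209 CPM (3.93, SE 0.34, edgeR adjusted p = 0.000235). S100a6 went from 35.1, 66.6 and 37.7 CPM to 305, 82.4 and 271 CPM (2.50, SE 0.50, edgeR adjusted p = 0.00827), but missed the threshold without sham 3 (adjusted p = 0.0562). S100a11 (3.84, SE 1.12, edgeR adjusted p = 0.0531) and Anxa2 (2.58, SE 0.82, edgeR adjusted p = 0.0651) missed it with all libraries. The labels give each library a replicate number but no pairing of sham with infarction. A replicate block, which takes same-numbered libraries as paired, was fitted as an alternative in every class tested. Only in this class did the deviations of all same-numbered libraries correlate, and that was seen in these same data. With that replicate block both passed (S100a11 3.56, edgeR adjusted p = 0.013, and Anxa2 2.89, edgeR adjusted p = 0.0419), which made 5 calls instead of 3. Those added calls rest on the inferred pairing. Without infarction 1, infarction 2 or infarction 3 the adjusted p of S100a11 was 0.0176, 0.0445 and 0.0357, and without sham 1 or sham 3 that of Anxa2 was 0.0471 and 0.000444. Anxa3 passed without sham 3 (2.82, adjusted p = 0.0129) and Anxa5 without sham 2 (1.98, adjusted p = 0.0203), and neither did with all libraries. Gpnmb-high macrophage markers, summed, stood at 675 to 2525 CPM in precursor-like cells of sham and at 1833 to 5417 CPM in infarction. Neutrophil markers stood at 70.4 to 273 CPM and at 191 to 2552 CPM. The part of both in the changes of the precursor-like class was not tested.

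The other glia had too few cells in some libraries for a test. In oligodendrocyte-like cells S100a10 was at 39.0 and 42.1 CPM in sham 2 and 3 and at 130, 695 and 473 CPM in infarction. In astrocyte-like cells it was at 1.05, 1.40 and 4.004 CPM in sham and at 273 and 147 CPM in infarction 2 and 3, which held 29 and 62 of these cells. Markers of other cells rose beside it in astrocyte-like cells: Gpnmb-high macrophage markers stood at 493 to 545 CPM in sham and at 2460 to 2603 CPM in infarction 2 and 3, neutrophil markers at 91.7 to 124 CPM and 284 to 2229 CPM, and microglia markers at 123 to 594 CPM and 1891 to 2200 CPM. In oligodendrocyte-like cells Gpnmb-high macrophage markers stood at 842 to 995 CPM in sham and 2794 to 6313 CPM in infarction. Their part in the S100a10 values was not tested. Astrocyte-like cells were low in every member in sham, with Anxa2 at 8.40, 4.20 and 10.4 CPM and Anxa5 at 59.9, 55.9 and 53.7 CPM. Schwann-like cells, the myelinating cells of the cranial nerve roots, were seen almost only in sham. They held high S100a6, S100a10 at 532, 545 and 481 CPM, and Anxa3 beside the microglia markers given above.

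In dendritic-like cells 4 of the 10 members were called higher and 0 lower, where 9.83% of all genes tested were called higher and 6.66% lower. Anxa5 was at 119, 65.9 and 81.3 CPM in sham and at 299, 284 and 236 CPM in infarction, a rise by 1.71 (SE 0.21, edgeR adjusted p = 4.5e-05). S100a4 rose by 1.44 (SE 0.15, edgeR adjusted p = 1.22e-05), from 917, 926 and 922 CPM to 2369, 2852 and 1975 CPM. Anxa2 rose by 0.81 (SE 0.16, edgeR adjusted p = 0.00331), from 414, 578 and 499 CPM to 946, 847 and 744 CPM. Without infarction 1 its adjusted p was 0.0521. S100a10 passed narrowly (0.44, SE 0.14, edgeR adjusted p = 0.0455), and its adjusted p was between 0.12 and 0.32 with any of the libraries but sham 3 left out. S100a6 (1.32, adjusted p = 0.00318) and Anxa3 (1.496, adjusted p = 0.0293) were higher, and S100a11 (-0.64, adjusted p = 0.0131) lower, only without sham 3, sham 3 and infarction 1 respectively. The class had 109 sham and 2285 infarction cells, from 2 clusters that the groups filled differently: a cluster led by Siglech, Spib and Cd24 held 45.9% of the sham and 16.1% of the infarction cells, and a cluster led by Ccl17, Clec9a and Cd74 the other 54.1% and 83.9%. In the Ccl17 and Clec9a cluster alone the groups did not overlap for Anxa5 (112, 88.4 and 90.1 CPM in sham and 331, 298 and 269 CPM in infarction), S100a4 (1146, 1327 and 1021 CPM and 2684, 3047 and 2351 CPM) or Anxa2 (485, 674 and 547 CPM and 1058, 898 and 859.9 CPM), and did for S100a10 (1328, 1588 and 1736 CPM and 1847, 1810.4 and 1659 CPM). Over the whole class, not the cluster alone, the groups did not overlap for 36.7% of all genes tested. In the class, Gpnmb-high macrophage markers stood at 454 to 656 CPM in sham and at 6136 to 8688 CPM in infarction, and the part of these markers in the dendritic-like values was not tested.

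In fibroblast-like cells 3 of the 8 members tested were called higher and 0 lower, where 10.8% of all genes tested were called higher and 13.1% lower. Anxa2 and S100a10 both rose, beside the fall of fibroblast markers and the rise of Gpnmb-high macrophage markers given above. Anxa2 went from 545, 388 and 608 CPM to 1344, 1304 and 1195 CPM, a rise by 1.44 (SE 0.21, edgeR adjusted p = 0.00142). S100a10 went from 825, 589 and 1078 CPM to 1586, 2330 and 2183 CPM, a rise by 1.42 (SE 0.26, edgeR adjusted p = 0.00432). In Gpnmb-high macrophage-like cells of infarction Anxa2 was at 819, 799 and 699.8 CPM and S100a10 at 1217, 1435 and 1304 CPM. These were below the fibroblast-like value of the same library in each case. In the Fcnb/Vcan cluster both genes were above the fibroblast-like value of the same library in each case, with Anxa2 at 1633, 1587 and 1528 CPM. The part of macrophage transcripts in the fibroblast-like values was not tested. The third gene called higher was Anxa3. S100a6 was at 3683, 2392 and 3795 CPM and at 4204, 4125 and 7081 CPM and was not called (0.76, edgeR adjusted p = 0.0635), though it was without infarction 1 (adjusted p = 0.0412).

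Border macrophage-like cells, which sit along vessels and meninges, had 1 of 8 members called higher and 1 lower, where 12% of all genes tested were called higher and 10.2% lower. Anxa1 was the higher one, at 67.8, 46.7 and 99.9 CPM in sham and at 183, 157 and 288 CPM in infarction (1.58, SE 0.28, edgeR adjusted p = 0.00207). Gpnmb-high macrophage markers, summed, stood at 689 to 1296 CPM in this class in sham and at 3224 to 6092 CPM in infarction. Their part in the Anxa1 value was not tested. Anxa2 was at 118, 116 and 212 CPM and at 253, 206 and 176 CPM (0.58, SE 0.21, edgeR adjusted p = 0.057). It passed without sham 3 or infarction 3 (adjusted p = 0.000945 and 0.0295), and S100a10 passed without sham 2 or sham 3 (adjusted p = 0.0324 and 0.0352).

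Endothelial-like cells also had 1 member higher and 1 lower of 8, where 5.1% of all genes tested were called higher and 5.57% lower. S100a11 went from 116, 67.7 and 93.6 CPM to 277, 277 and 159 CPM, a rise by 1.52 (SE 0.26, edgeR adjusted p = 0.00283). Anxa5 went from 542, 451 and 638 CPM to 266, 297 and 262 CPM, a fall by 0.84 on the log2 scale (SE 0.18, edgeR adjusted p = 0.00694). S100a4 was at 86.5, 124 and 107 CPM and at 403, 660 and 159 CPM, with no overlap, as for 33.3% of all genes tested. It was not called (2.07, SE 0.57, edgeR adjusted p = 0.101), but was without infarction 3 (edgeR adjusted p = 7.49e-05). S100a10 passed without sham 1 (1.55, edgeR adjusted p = 0.0131). Gpnmb-high macrophage markers, summed, stood at 949 to 1405 CPM in this class in sham and at 2828 to 6848 CPM in infarction. Neutrophil markers stood at 31.4 to 61.6 CPM and at 342 to 1212 CPM. The part of both in the changes of this class was not tested. In sham, the smooth muscle reference genes in this class stood at 2.29% to 4.67% of their smooth muscle level and Anxa5 at 92.5% to 125%.

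T or NK-like cells had 0 members higher and 1 lower of 8, where 4.83% of all genes tested were called higher and 2.69% lower. S100a6 was at 1661, 1146 and 1896 CPM in sham and at 683, 1030 and 756 CPM in infarction, a fall by 0.86 on the log2 scale (SE 0.19, edgeR adjusted p = 0.009). Smooth muscle transcripts moved with it: Tagln was at 477, 346 and 525 CPM in these cells in sham and at 5.49, 0 and 3.17 CPM in infarction. In sham, S100a6 stood at 53.7% to 95.01% of its smooth muscle level, while the smooth muscle reference genes stood at 1.19% to 1.57% of theirs. Anxa1 passed only without sham 1 (1.31, adjusted p = 0.00744). S100a4 and S100a10, both abundant in these cells, gave 0.04 (SE 0.24) and 0.33 (SE 0.15) with edgeR adjusted p = 0.95 and 0.199.

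Ependymal-like cells, which line the ventricles, had 0 of 8 members called in either direction, where 0.404% of all genes tested were called higher and 0.732% lower. Without infarction 1, S100a4 was higher (2.42, edgeR adjusted p = 0.0157) and S100a11 (-1.41, edgeR adjusted p = 0.00444) and Anxa5 (-0.92, edgeR adjusted p = 0.043) were lower. Anxa5 was at 656, 1094 and 739 CPM in sham and at 1101, 376 and 458 CPM in infarction, so infarction 1 was high and the others low.

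The changes were tested for a difference from those in microglia-like cells, in 1 model per pair of classes. Anxa2 rose less, or fell, in 7 of the 8 other classes tested: the difference ranged from -2.21 in fibroblast-like to -4.50 in neutrophil-like cells. Precursor-like cells were the exception, with no call for Anxa2, and there S100a10 (6.92) and S100a4 (3.46) rose more than in microglia-like cells. Shares of all genes with such a difference were 18.1% for T or NK-like, 15.5% for border macrophage-like, 16% for dendritic-like, 20.2% for endothelial-like, 8.49% for ependymal-like, 12.6% for fibroblast-like, 10.2% for neutrophil-like and 8.05% for precursor-like cells. The comparisons share the microglia-like libraries. They use the change of the whole microglia-like class, whose clusters the groups filled differently. Inside the clusters fitted alone, several members moved otherwise than in the class, as given above.

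Related genes were read from fixed lists. The counts stand beside 32.4% of all genes tested called higher and 31.9% lower in microglia-like cells, and those near these shares say nothing about a list. In microglia-like cells 3 of 4 other annexin genes tested rose and 0 fell, among them Anxa4 (25.6 to 70.4 CPM) and Anxa6 (10.4 to 32.8 CPM). Of 4 other S100 genes 0 rose and 2 fell, S100a13 (69.0 to 43.4 CPM) and S100a16, and S100pbp, kept in the same list but encoding a binding partner, fell too. Of 6 receptor genes for calprotectin and annexin A1, 1 rose, Cd14 (10.1 to 516 CPM), which passes ligands to Toll-like receptor 4. Tlr4 itself (40.6 to 16.7 CPM), Mcam and Ager were the 3 that fell, the last pair known also from vessel cells. Of 8 partner genes of the annexin A2 and S100A10 complex 4 rose, among them Plau (0.513 to 6.81 CPM) and Ahnak (8.03 to 28.6 CPM), and 3 fell, Tlr2 (207 to 111 CPM), Cav1 and Dlc1. Of 7 membrane repair genes 5 rose, led by the calpain gene Capn2 (16.04 to 54.8 CPM), and Ehd2 fell.

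In neutrophil-like cells, where 14% of all genes tested were called higher and 6.96% lower, the same lists gave 2 rises and 1 fall among 4 other annexins. Anxa11 fell by 1.35 on the log2 scale, from 493 to 155 CPM, and Anxa6 rose from 21.8 to 65.1 CPM. The urokinase receptor gene Plaur rose from 14.1 to 102 CPM, 1 of 2 partner genes tested. In precursor-like cells (14.3% of all genes higher and 13.8% lower) 1 of 3 other S100 genes rose, S100a16 (23.7 to 55.0 CPM). In fibroblast-like cells (10.8% higher and 13.1% lower) 2 of 5 rose, S100a16 (123 to 244 CPM) and S100a1, while S100a3 fell (30.4 to 4.13 CPM). S100pbp was called in neither class.

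Summed over all cells of a library, where fewer cells of a type and less RNA per cell cannot be told apart, 9 of the 10 members rose and 0 fell, where 33.2% of all genes tested were called higher and 38.1% lower. S100a10 rose most, from 96.6, 68.0 and 74.2 CPM to 1284, 1401 and 1359 CPM (4.54, SE 0.17, edgeR adjusted p = 1.18e-05). The exception was Anxa3, at 183, 423 and 800 CPM in sham and at 574, 688 and 416 CPM in infarction (0.74, SE 0.51, edgeR adjusted p = 0.239; without sham 3, 1.34 and adjusted p = 0.0281). The source of the transcripts changed between the groups. In sham, smooth muscle-like cells held on average 89.0% of S100a4, 84.0% of S100a6, 79.3% of S100a11, 70.0% of Anxa5 and 64.4% of Anxa1 UMIs. In infarction, Gpnmb-high macrophage-like cells and the Fcnb/Vcan cluster held 43.1% and 37.3% of S100a4 and 49.4% and 32.8% of Anxa5, and dendritic-like cells 12.8% and 9.08%. Smooth muscle-like cells numbered 1 in infarction and Gpnmb-high macrophage-like cells 0 in sham, so the cell mix and the change over all cells cannot be told apart.

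Genes with the most similar profile over the 31 means of classes and groups were found by Pearson correlation of log2(CPM + 1), as a description, since the means share libraries. Outside the families, S100a8 was most like Camp (r = 0.935), Mcemp1 (0.895) and Clec4d (0.890). Anxa3 was most like Slco2b1 (0.868), C1qa (0.821) and Grxcr1 (0.812). Anxa1 and Anxa2 shared neighbours, Plp2 (0.828 and 0.796) and Tspo (0.751 and 0.814). Anxa5 was most like Serpinb6a (0.813) and S100a4 most like Cst7 (0.822). The profile of S100a10 was nearest to the ribosomal protein genes Rplp0 (0.830) and Rps20 (0.823). Within the family the closest were S100a8 and S100a9 (0.963), then S100a11 and Anxa1 (0.900), with S100a11 and Anxa2 at 0.833. S100a10 and Anxa2 were at 0.698, and Anxa3 was near 0 or below with 9 members, from -0.265 with Anxa5 to 0.103 with S100a8.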

How the data were processed

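The members and gene lists were chosen with earlier results of these data known. The deposited counts are raw UMI counts per gene and barcode, and the authors used CASAVA 1.8, Cell Ranger 3.1.0 and Seurat 2.3.4, per the submitters' processing notes. The genome build is not given in the sources used here. Libraries held 56416475 to 69924334 UMIs, and the lowest barcode 500. Kept cells had at least 500 UMIs, 200 genes, at most 20% mitochondrial UMIs and a Scrublet score of at most 0.25, which removed 1.74% to 2.79% per library (scanpy 1.11.5). The 2000 variable genes, without any of 30 S100 and annexin genes, gave 30 principal components, 15 neighbours and Leiden clusters at resolution 1.0.

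A cluster took the class with the most markers, at least 3, each in at least 25% of its cells and 1 log2 unit above all other cells. For each class that every library filled with at least 10 cells, UMIs were added up by library, filtered with filterByExpr, scaled by TMM and fitted with edgeR 4.0.16 (robust quasi-likelihood, group as the only term, Benjamini-Hochberg adjustment, threshold 0.05). Differences from microglia-like cells were interaction terms with the library as a block. On simulated data with 200 genes changed 4-fold, 90% were recovered at the microglia-like sums, 36% at the neutrophil-like and 72% at the fibroblast-like ones. Counts cover molecules, and errors of shares cover counting only. Alternatives were DESeq2 1.42.0, no filter on low counts, each library left out, the replicate block, at most 10% mitochondrial UMIs, a doublet score of at most 0.15, resolution 0.5, at least 20 cells per library and 500 in place of 1000 UMIs after thinning. Those added after seeing the data were microglia-like cells of single clusters, the class without its dividing cluster, and neutrophil-like totals without S100a8 and S100a9. The replicate block was fitted in every class tested. Its pairing was inferred for precursor-like cells, where the deviations of same-numbered libraries correlated at r = 0.105, 0.306 and 0.518 over genes. In every other class at least 1 of the 3 pairs had r = 0.0194 or less. All 10 members are described. From each list up to 4 called genes with the smallest p were eligible to be named, and the 3 likest genes come from those with at least 50 CPM. RefSeq lists near-identical copies of S100a10 (1), S100a11 (7) and Anxa2 (8), and the count tables hold none of them.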

Additional observations from a re-analysis of the deposited data

Results flagged for a closer look

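Changes that differed between a class and microglia-like cells, by edgeR's interaction test, are given here as the change in the class minus that in microglia-like cells on the log2 scale. The microglia-like change is that of the whole class, whose clusters the groups filled differently. Inside the clusters fitted alone, Anxa1 and S100a10 did not rise. For Anxa2, which rose in microglia-like cells, the difference was -3.86 in T or NK-like, -3.18 in border macrophage-like, -2.86 in dendritic-like, -3.27 in endothelial-like, -3.67 in ependymal-like, -2.21 in fibroblast-like and -4.5 in neutrophil-like cells. For S100a11 it was -2.59 in T or NK-like, -2.18 in border macrophage-like, -3.04 in dendritic-like, -3.54 in ependymal-like, -2.58 in fibroblast-like and -3.35 in neutrophil-like cells. Anxa1 differed by -1.8 in T or NK-like, -1.09 in border macrophage-like, -2.81 in dendritic-like, -2.19 in endothelial-like, -2.87 in fibroblast-like and -5.74 in neutrophil-like cells, the first of which was lost without sham 2 (adjusted p = 0.0794).

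Anxa5 differed by -1.43 in T or NK-like, -1.49 in border macrophage-like, -2.2 in endothelial-like and -1.55 in fibroblast-like cells. S100a10 differed by -1.54 in T or NK-like and by 6.92 in precursor-like cells, and S100a4 by 3.46 in precursor-like cells. Anxa3, which fell in microglia-like cells, differed by 0.77 in endothelial-like and by 4.26 in fibroblast-like cells. The first was lost without infarction 1 or infarction 2 (adjusted p = 0.103 and 0.133) and the second without infarction 2 (adjusted p = 0.0654).

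The calprotectin genes gave the widest differences. S100a8 differed by -3.41 in border macrophage-like, -6.99 in fibroblast-like and -9.1 in neutrophil-like cells, and S100a9 by -9.57 in fibroblast-like and -9.21 in neutrophil-like cells. The difference of S100a8 in border macrophage-like cells was lost without sham 2, sham 3, infarction 1 or infarction 3 (adjusted p = 0.401, 0.159, 0.165 and 0.0661). In neutrophil-like cells that of S100a8 was lost without sham 1, sham 2 or sham 3 (adjusted p = 0.187, 0.206 and 0.0549) and that of S100a9 without sham 1 or sham 2 (adjusted p = 0.19 and 0.277).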

How the results depend on the processing

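Of the values recomputed under the alternatives, 1107 kept their direction and side of the threshold, 56 became weaker, 48 stronger and 45 reversed; the cause was not tested. The microglia-like counts of 8 higher and 1 lower became 2 and 5 in the shallow cluster alone and 4 higher in the Ccl4 and Gpr84 cluster alone. In the shallow cluster S100a4 (-0.53), S100a6 (-2.71), S100a10 (-0.40), S100a11 (-1.93), Anxa1 (-0.037) and Anxa5 (-1.43) reversed, and in the other S100a10 (-0.16) and Anxa1 (-0.17). The neutrophil-like count of lower genes became 2 with S100a8 and S100a9 left out, since they are then not tested. DESeq2 gave 0 lower in border macrophage-like, 3 higher in endothelial-like and 5 higher in precursor-like cells. With no filter on low counts, 1 gene was higher in T or NK-like, 5 in border macrophage-like and 3 in endothelial-like cells, and 4 differed in ependymal-like from microglia-like cells. Resolution 0.5 gave 2 higher in border macrophage-like and 2 in dendritic-like cells, and a doublet score of at most 0.15 gave 1 in precursor-like cells. The replicate block gave 5 higher in precursor-like and 2 in endothelial-like cells; of its values 6 became stronger, 1 weaker (neutrophil-like Anxa2, adjusted p = 0.0564) and 1 reversed (fibroblast-like S100a4, -0.28).

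Leaving out 1 library gave 5 to 9 higher members in microglia-like, 4 to 7 in precursor-like, 2 to 6 in dendritic-like, 1 to 3 in border macrophage-like, 1 to 2 in endothelial-like and 0 to 1 in T or NK-like and ependymal-like cells. It gave 0 to 1 lower members in border macrophage-like and dendritic-like cells, 0 to 2 in ependymal-like and 3 to 5 in neutrophil-like cells. The members that differed from microglia-like cells numbered 3 to 6 in dendritic-like, 2 to 4 in ependymal-like and 3 to 5 in neutrophil-like cells.

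Every other reversal was of an uncalled member. With at most 10% mitochondrial UMIs Anxa3 over all cells gave -0.12, and S100a4 and Anxa2 in T or NK-like cells -0.032 and 0.043. With a doublet score of at most 0.15, S100a4, Anxa3 and Anxa5 in T or NK-like cells gave -0.011, -0.13 and -0.015, and Anxa3 gave -0.0071 in dendritic-like and -0.029 in endothelial-like cells. DESeq2 gave -0.032 for Anxa5 in T or NK-like cells. With no filter, Anxa3 in endothelial-like cells gave -0.041, Anxa2 in ependymal-like cells 0.0073 and S100a4 in fibroblast-like cells -0.042. With 1 library left out, T or NK-like cells gave -0.19 to 0.20 for S100a4, -0.34 to 0.076 for Anxa2, -0.0705 to 0.896 for Anxa3 and -0.37 to 0.29 for Anxa5. Border macrophage-like cells gave -0.24 to 0.78 for S100a6 and -0.25 to 0.011 for Anxa5, and endothelial-like cells -0.19 to 0.20 for Anxa3. Ependymal-like cells gave -2.33 to 0.26 for S100a6, -0.25 to 1.82 for S100a10, -0.15 to 0.68 for Anxa1 and -0.18 to 0.029 for Anxa2. Fibroblast-like cells gave -0.64 to 0.59 for S100a4 and -0.35 to 0.036 for Anxa5, and neutrophil-like cells -0.81 to 0.07036 for Anxa3 and -0.037 to 2.29 for Anxa5.

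Neutrophil-like, fibroblast-like and ependymal-like cells would not have been tested with a minimum of 20 cells in every library. The sham neutrophil-like values rest on 69 cells. With thinning to 500 UMIs S100a8 was detected in 94.2% of sham and 44.8% of infarction neutrophil-like cells.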
